A study of Mus musculus with 2 samples.

Results

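γδ T cells of the small intestine lamina propria, the connective tissue under the gut epithelium, were picked from 2 droplet libraries by their transcripts. A cell was taken when it had a UMI (a unique molecular identifier, which counts 1 captured RNA molecule) of Cd3d, Cd3e or Cd3g, a UMI of Trdc, and a UMI of Tcrg-C1, Tcrg-C2 or Tcrg-C4. It also had to have no UMI of Cd8b1 or Foxp3 and to hold under 15% of its UMIs on 7 immunoglobulin genes. This rule found 563 cells among 12526 in the CD4-Cre; Aster-A F/F library and 430 cells among 12594 in the Aster-A F/F library, 993 of 25120 in all. The cells were thus chosen by measured values, so their levels of these genes are a description and no finding.

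The CD4-Cre; Aster-A F/F mice carried CD4-Cre, a transgene driven by Cd4 regulatory sequence, beside floxed alleles of Aster-A, the sterol carrier encoded by Gramd1a, and the Aster-A F/F mice carried the floxed alleles alone. Both were female littermates aged 10 to 12 weeks. Every mouse was fasted for 16 h before an olive oil gavage of 2 h. The sort took 100000 live CD45+ cells per mouse that were negative for EPCAM, Ter119 and CD31. Cells of 3 mice were pooled for each genotype, so each genotype is 1 sample. The F/F library, titled WT by the submitters, carries the floxed alleles and is not a wild type without them. With 1 pool per genotype no difference between genotypes could be tested. Every interval below is an exact 95% interval that covers counting error only and leaves out the spread between mice.

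γδ T cells carry a T cell receptor made of a γ and a δ chain, and in the gut many lie in or near the epithelium, where they are known for granzymes, for integrin αE (Itgae, CD103) and for a CD8αα homodimer without CD8β. They reach the gut as several waves with different γ variable segments: Vγ7 marks intraepithelial cells, and Vγ6 paired with the Trdv4 segment marks an innate-like type 17 lineage. CD4-Cre is best known for recombination in thymocytes that express CD4, a stage of the αβ lineage that most γδ T cells do not pass through. Segment names are those of the deposited gene table.

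The γ chain constant genes chose the cells, so their sequences show how well a 3′ tag can tell them apart. Tcrg-C1 (chr13:19214103-19217024, plus strand), Tcrg-C2 (chr13:19304649-19307551, minus strand) and Tcrg-C4 (chr13:19344558-19352756, plus strand) lie in 1 cluster on GRCm38, in the GENCODE M21 annotation. Their hinge exons, which code for the segment between the constant domain and the membrane, differ in length. The Tcrg-C1 hinge has 45 bases and the Tcrg-C2 hinge has 30. Capitals mark the 15 bases of Tcrg-C1 that Tcrg-C2 lacks. Tcrg-C4 has a pair of hinge exons with other sequences, of 54 and 45 bases. The exons below run 5′ to 3′ on the coding strand.
Tcrg-C1 hinge, chr13:19215864-19215908: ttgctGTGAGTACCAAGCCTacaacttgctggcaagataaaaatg
Tcrg-C2 hinge, chr13:19305769-19305798: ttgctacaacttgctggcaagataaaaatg
Tcrg-C4 first hinge exon, chr13:19349536-19349589: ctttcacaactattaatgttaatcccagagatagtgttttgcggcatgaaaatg
Tcrg-C4 second hinge exon, chr13:19350330-19350374: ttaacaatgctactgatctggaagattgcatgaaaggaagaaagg

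The coding part of the last exon, nearest to where a 3′ library reads, holds 140 bases in all 3 genes without the stop codon. Capitals mark the bases that differ from Tcrg-C1.
Tcrg-C1 last coding part, chr13:19216476-19216615: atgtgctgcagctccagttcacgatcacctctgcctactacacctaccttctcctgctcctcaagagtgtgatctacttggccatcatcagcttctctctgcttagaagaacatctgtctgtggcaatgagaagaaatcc
Tcrg-C2 last coding part, chr13:19305063-19305202: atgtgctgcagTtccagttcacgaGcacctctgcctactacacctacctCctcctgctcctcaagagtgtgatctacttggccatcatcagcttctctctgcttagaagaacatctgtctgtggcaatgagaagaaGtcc
Tcrg-C4 last coding part, chr13:19352201-19352340: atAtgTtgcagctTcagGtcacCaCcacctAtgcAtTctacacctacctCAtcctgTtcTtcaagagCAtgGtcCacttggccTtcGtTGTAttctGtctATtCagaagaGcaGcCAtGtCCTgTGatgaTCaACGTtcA

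Tcrg-C2 differed from Tcrg-C1 at 4 of these bases and Tcrg-C4 at 44. Of the 50-base windows in the last 300 bases of the Tcrg-C1 transcript, 21.9% also occurred in Tcrg-C2 and 0 in Tcrg-C4. Reads could therefore be split uncertainly between Tcrg-C1 and Tcrg-C2, whereas Tcrg-C4 shared no such window with either.

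The constant genes were seen together more often than singly. Only Tcrg-C1 was seen in 69 CD4-Cre and 60 F/F cells, only Tcrg-C2 in 48 and 26, only Tcrg-C4 in 119 and 71, and more than 1 of them in 327 and 273. Tcrg-C4 was seen in 71.0% of CD4-Cre and 72.6% of F/F cells, Tcrg-C1 in 53.1% and 63.0%, and Tcrg-C2 in 49.2% and 50.9%. Trdc, the only δ constant gene (chr14:54142851-54148868), stood at a median of 4 UMIs per cell in each library. It had exactly 1 UMI in 89 CD4-Cre and 53 F/F cells, the members just inside the rule. Just outside it were 510 CD4-Cre and 325 F/F cells that met every other part but had no Trdc UMI. Trac, the α constant gene, was seen in 70.6% and 69.2% of those cells just outside, and in 29.2% and 35.8% of the cells with 1 Trdc UMI.

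αβ receptor transcripts were not absent from the cells. Trac stood at 144 CPM (UMIs per 1000000 UMIs, both summed over the cells) in each library and was seen in 36.1% of CD4-Cre and 40.0% of F/F cells. In CD4 T cells it stood at 625 CPM in the CD4-Cre library and 615 CPM in the F/F library. Trbc2, a β constant gene, was seen in 89.3% and 84.9% of the γδ T cells, and Trbc1, the other β constant gene, in 62.7% and 64.0%. These 2 genes are alike in sequence, so reads can be split between them uncertainly. Only 28 CD4-Cre and 25 F/F cells had no UMI of Trac, Trbc1 or Trbc2, so the label rests on δ and γ transcripts and not on the lack of αβ ones. Cd5, a receptor brake that most αβ T cells carry, stood at 3.21 CPM in CD4-Cre and 4.87 CPM in F/F γδ T cells. In CD8αβ T cells it stood at 68.0 and 106 CPM, and in CD4 T cells at 191 and 180 CPM.

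Markers of other cells were measured across whole lists beside these values. The 9 plasma and B cell markers summed to 3465 CPM in CD4-Cre and 3660 CPM in F/F γδ T cells, mostly Jchain, and none was at 0. The defining B cell gene Ms4a1 had 3 UMIs in CD4-Cre and 2 UMIs in F/F cells. The 12 macrophage and dendritic cell markers summed to 1031 and 773 CPM, with 0 and 1 of them at 0, and the 9 NK and innate lymphoid markers to 261 and 211 CPM, with none at 0. The 9 epithelial markers summed to 52.5 and 44.3 CPM, nearly all of it Epcam, and 6 and 5 of them were at 0. The 5 mast cell markers summed to 2.41 and 2.21 CPM, with 4 at 0 in each library, and the 6 erythroid and stromal markers to 15.6 and 18.2 CPM, with 5 at 0 in each. The part of doublets and free RNA in these values was not tested.

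The cells were shallower than the average kept cell. Their median was 3937 UMIs in the CD4-Cre library and 4272.5 UMIs in the F/F library, against medians of 14031 and 15319.5 UMIs over all kept cells, most of them plasma cells. The γδ T cells held 2493986 UMIs in the CD4-Cre library and 2258569 UMIs in the F/F library. The libraries shared 47 barcodes among kept cells. No γδ T cell of one library shared its barcode with a γδ T cell of the other.

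In granzyme A the γδ T cells and the T cells that carry CD8α without CD8β both stood above CD8αβ, CD4 and NK or ILC1 cells. These populations were set by gates on transcripts and are compared as a description, with 147 CD4-Cre and 93 F/F CD8α-only T cells, 322 and 118 CD8αβ T cells, 1253 and 519 CD4 T cells, and 92 and 90 NK or ILC1 cells. Gzma, which encodes granzyme A, stood at 9715 CPM in CD4-Cre and 11192 CPM in F/F γδ T cells. In the CD4-Cre and F/F libraries it stood at 9820 and 8460 CPM in CD8α-only, 2224 and 2500 CPM in CD8αβ, 1354 and 1448 CPM in CD4 and 2298 and 2268 CPM in NK or ILC1 cells. Plasma cells, which should lack granzyme A, had a Gzma UMI in 28.4% and 25.1% of cells, at 64.9 and 56.7 CPM and at median depths of 17529 and 17588.5 UMIs. In the γδ T cells the share was 44.9% (40.8 to 49.2) in CD4-Cre and 54.7% (49.8 to 59.4) in F/F. Gzmb, granzyme B, stood at 1302 and 1276 CPM, beside 1238 and 1033 CPM in CD8α-only and 359 and 211 CPM in CD8αβ T cells. Cd160, a receptor of intraepithelial lymphocytes, stood at 366 and 355 CPM, with 416 and 439 CPM in CD8αβ T cells.

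**Figure D1:**
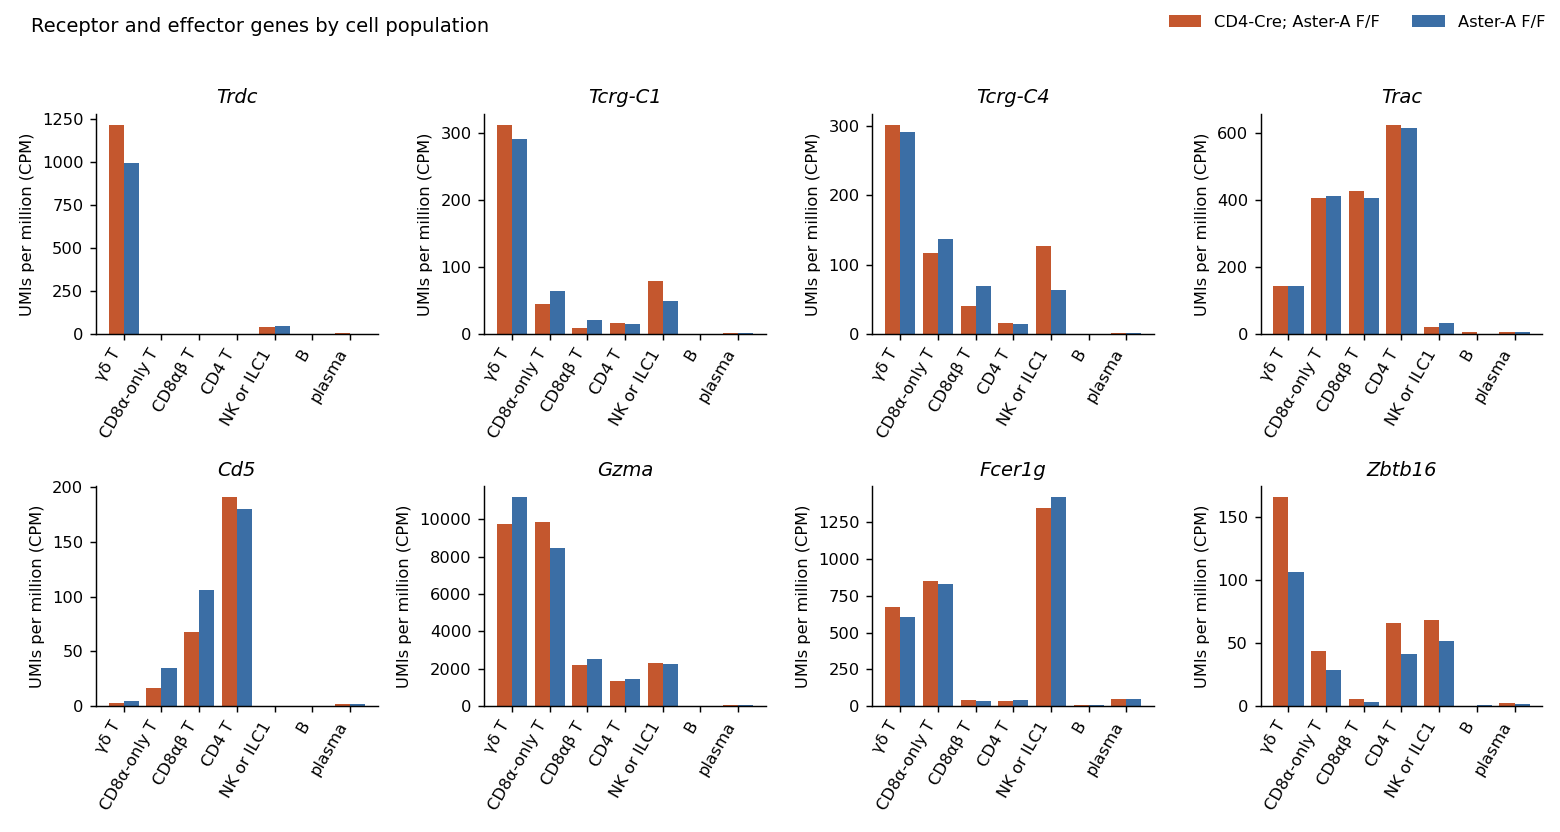
Levels (CPM, linear axes) of 8 receptor and effector genes in γδ T cells and 6 other populations, 1 bar per library. Trdc, Tcrg-C1 and Tcrg-C4 helped choose the cells. Cd5 stood below 5 CPM in γδ T cells, Gzma stood at 9715 CPM in CD4-Cre and 11192 CPM in F/F γδ T cells, beside 9820 and 8460 CPM in CD8α-only T cells, and Fcer1g stood highest in NK or ILC1 cells, at 1346 and 1423 CPM.

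Against CD8αβ T cells, the genes furthest above included the adaptors Fcer1g, Tyrobp and Clnk beside others such as Zmat4 and Lrmda. Of 3057 genes compared, 8.01% were at least 1.5-fold higher in γδ T cells in both libraries and 2.16% lower. Fcer1g, the γ chain of Fc receptors, which γδ T cells can use in their receptor complex, stood at 671 CPM in CD4-Cre and 606 CPM in F/F γδ T cells, against 42.6 and 33.8 CPM in CD8αβ T cells. Tyrobp, the adaptor DAP12, stood at 222 and 220 CPM against 17.2 and 25.3 CPM. Clnk, an adaptor of immune receptor signalling, stood at 334 and 309 CPM against 5.08 and 3.38 CPM, and Zbtb16, which encodes the innate-like T cell factor PLZF, at 166 and 107 CPM against 5.72 and 3.38 CPM. Il12rb2, a chain of the interleukin 12 receptor, stood at 180 and 116 CPM against 23.5 and 15.2 CPM. Spry2, a feedback inhibitor of kinase signalling, and Socs2, a feedback inhibitor of cytokine signalling, were also among the 12 genes furthest above. In γδ T cells with a Cd8a UMI, Socs2 stood at 10.8 and 3.35 CPM, against 8.26 and 3.38 CPM in CD8αβ T cells. Lower genes held the costimulatory receptor Cd28, at 119 and 67.7 CPM against 561 and 368 CPM, and S100a4, at 11.2 and 18.6 CPM against 78.8 and 257 CPM.

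Fewer genes set γδ T cells apart from CD8α-only T cells, where 1.6% of 3067 genes were higher in γδ T cells in both libraries and 1.57% lower. Fcer1g, Tyrobp, Clnk, Spry2, Il12rb2, Zmat4 and Lrmda, named against CD8αβ T cells, were not among the 12 genes furthest above here. Zbtb16 and Socs2 were, Zbtb16 at 166 and 107 CPM against 43.9 and 28.4 CPM. Cd5, low against CD8αβ and CD4 T cells, was not among the 12 genes furthest below. Socs2 stood at 103 CPM in CD4-Cre and 104 CPM in F/F γδ T cells, against 8.22 and 2.03 CPM. Il18r1, the interleukin 18 receptor, stood at 142 and 112 CPM against 46.6 and 26.3 CPM. The CD8α-only gate needs a Cd8a UMI. In γδ T cells with one, Socs2 stood at 10.8 and 3.35 CPM and Il18r1 at 17.7 and 23.4 CPM. Both differences thus lay mainly in the γδ T cells without Cd8a. Genes on the lower side included Cst3, at 389 and 428 CPM against 1485 and 1697 CPM, Irf8, at 42.9 and 50.9 CPM against 138 and 124 CPM, and Cxcl9, at 0.802 and 1.33 CPM against 152 and 83.0 CPM. These are known dendritic cell or macrophage genes. The 12 macrophage and dendritic cell markers summed to 1031 and 773 CPM in γδ T cells and to 2350 and 2309 CPM in CD8α-only T cells, and their part in this result was not tested.

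Against CD4 T cells, the genes furthest below included Il17a, Il10 and Tnfrsf4, beside others such as Nckap5, Plcl1 and Neb. Of 3221 genes, 6.71% were higher in γδ T cells in both libraries and 5.68% lower. Il17a, the type 17 cytokine, stood at 2.00 CPM in CD4-Cre and 0.886 CPM in F/F γδ T cells, against 129 and 191 CPM in CD4 T cells. Il10 stood at 6.42 and 3.10 CPM against 248 and 253 CPM, and Tnfrsf4, the costimulatory receptor OX40, at 2.00 and 0.886 CPM against 125 and 116 CPM. Klrd1, the CD94 chain of NK receptors, stood higher, at 480 and 468 CPM against 25.8 and 9.69 CPM, as did Cd7, at 852 and 908 CPM against 54.7 and 47.7 CPM.

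Against NK or ILC1 cells, Itgae was the gene furthest above, and receptor genes of the Klra and Klrb1 families were among those furthest below. Of 3175 genes, 4.54% were higher in γδ T cells in both libraries and 7.87% lower. Itgae stood at 341 CPM in CD4-Cre and 387 CPM in F/F γδ T cells, against 6.55 and 2.88 CPM in NK or ILC1 cells, and Themis, a T cell receptor signalling protein, at 315 and 293 CPM against 9.82 and 5.76 CPM. Gzmk, granzyme K, stood at 99.0 and 73.9 CPM against 6.55 and 5.76 CPM. Klrb1b stood at 15.2 and 17.7 CPM against 835 and 735 CPM, and Ncr1, the NKp46 receptor that helped choose the NK or ILC1 cells, at 12.4 and 15.9 CPM against 511 and 516 CPM. Klrb1c, at 59.3 and 42.1 CPM against 501 and 602 CPM, also helped choose those cells. The values of Ncr1 and Klrb1c are thus a description and no finding.

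Within the γδ T cells, Itgae, Gzma and Fcer1g stood higher in cells with a Cd8a UMI, and Il7r, Il18r1 and Maf in cells without one. Cd8a was seen in 208 CD4-Cre cells, 36.9% (32.9 to 41.1), and 165 F/F cells, 38.4% (33.8 to 43.2). Of 3142 genes, 6.05% were at least 1.5-fold higher in Cd8a-positive than in Cd8a-negative cells in both libraries and 5.82% lower. Itgae was seen in 81.2% of Cd8a-positive against 25.1% of Cd8a-negative CD4-Cre cells, and in 90.3% against 37.4% of F/F cells. Gzma was seen in 73.6% against 28.2% of CD4-Cre cells and in 79.4% against 39.2% of F/F cells. Fcer1g was seen in 69.7% against 31.8% of CD4-Cre cells and in 77.0% against 29.4% of F/F cells. Integrin αE, granzyme A and the Fc receptor γ chain thus went with Cd8a in both libraries. The genes furthest above by the naming rule were others, among them Cd200r2, Rnf180 and Glp1r.

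Il7r, the interleukin 7 receptor, stood at 71.8 CPM in Cd8a-positive against 568 CPM in Cd8a-negative CD4-Cre cells, and at 42.4 against 383 CPM in F/F cells. Il18r1 stood at 17.7 against 228 CPM in CD4-Cre cells and 23.4 against 170 CPM in F/F cells. Maf, a transcription factor of innate-like and type 17 T cells, stood at 13.8 against 142 CPM in CD4-Cre cells and 10.0 against 113 CPM in F/F cells. Cd40lg, the ligand through which T cells help B cells, stood at 0.984 against 67.0 CPM and 1.12 against 61.0 CPM. The chemokine receptor Ccr2 and the hypoxia factor Epas1 were also among the 8 genes furthest on the Cd8a-negative side. The 12 macrophage and dendritic cell markers summed to 396 CPM in Cd8a-positive against 1468 CPM in Cd8a-negative CD4-Cre cells, and to 389 against 1027 CPM in F/F cells, and their part in this result was not tested.

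A split by Zbtb16, made after the values were seen, set apart cells with less granzyme and more Il4 and Icos. Zbtb16 was seen in 182 CD4-Cre cells, 32.3% (28.5 to 36.4), and 104 F/F cells, 24.2% (20.2 to 28.5). Of 3119 genes, 5.16% were higher in Zbtb16-positive cells in both libraries and 2.34% lower. Il4, a type 2 cytokine, stood at 58.3 CPM in Zbtb16-positive against 14.7 CPM in Zbtb16-negative CD4-Cre cells, and at 70.4 against 6.35 CPM in F/F cells. Icos, a costimulatory receptor, stood at 149 against 41.7 CPM in CD4-Cre cells and 81.8 against 22.5 CPM in F/F cells. Gzma went the other way, at 2899 against 12873 CPM in CD4-Cre cells and 4121 against 13335 CPM in F/F cells. Ifng, interferon γ, was seen in 31 of 182 Zbtb16-positive against 36 of 381 Zbtb16-negative CD4-Cre cells, and in 35 of 104 against 35 of 326 F/F cells. Both Cd8a and Zbtb16 were seen in 22 CD4-Cre and 11 F/F cells, neither in 195 and 172.

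**Figure D2:**
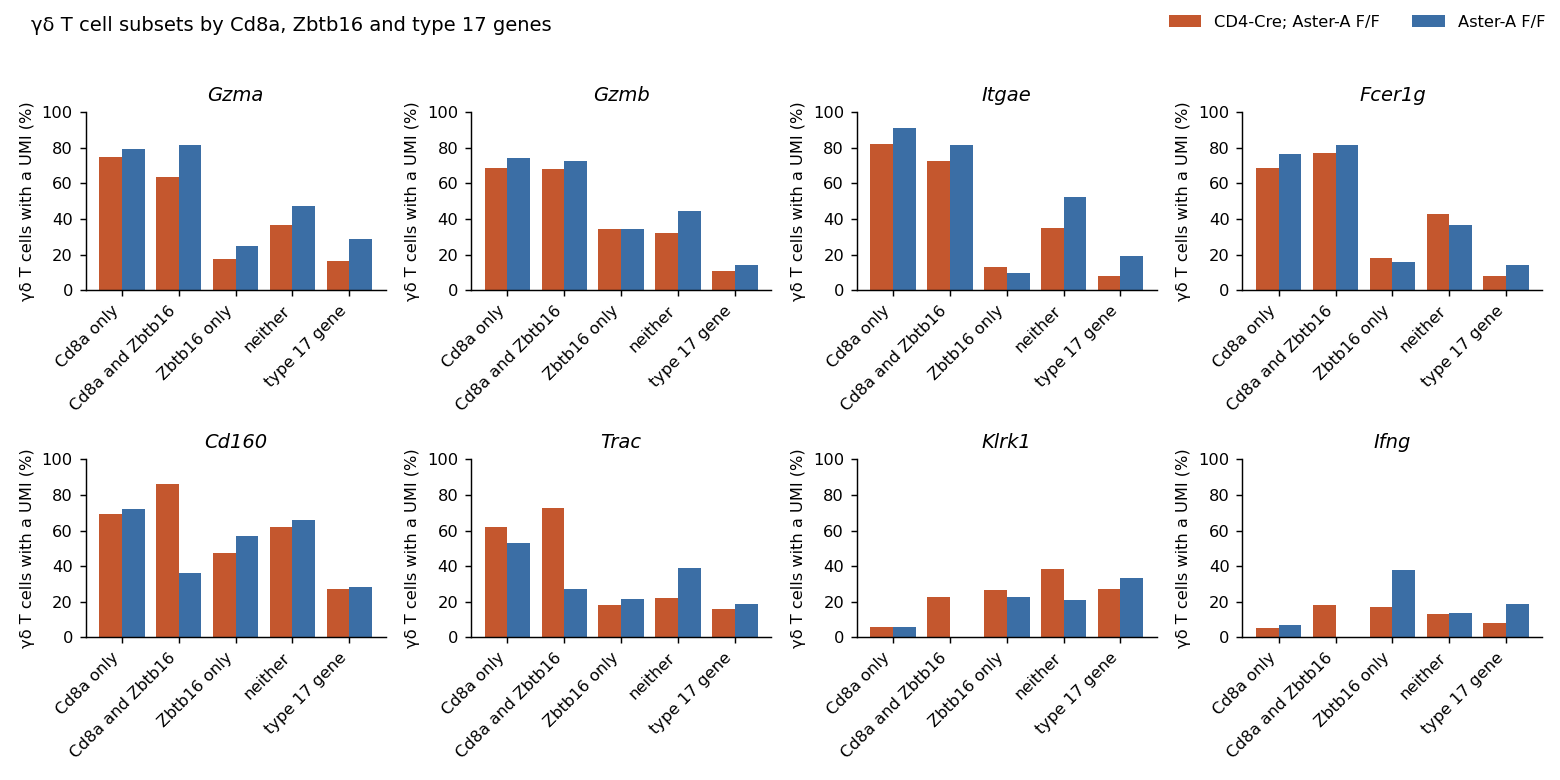
Share of γδ T cells with a UMI of each gene (percent, not thinned) by library, in cells with Cd8a only, with Cd8a and Zbtb16 (22 CD4-Cre and 11 F/F cells), with Zbtb16 only, with neither, and with a type 17 gene (Il17a, Il17f or Il23r). The type 17 group of 37 CD4-Cre and 21 F/F cells overlaps the other groups. Gzma, Gzmb, Itgae and Fcer1g stood highest in the groups with Cd8a and low in the group with a type 17 gene.

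A small group carried type 17 genes without much of the cytokine. A UMI of Il17a, Il17f or Il23r, a gate chosen after the values were seen, was found in 37 CD4-Cre cells, 6.57% (4.67 to 8.95), and 21 F/F cells, 4.88% (3.05 to 7.37), while Il17a itself was seen in 0.710% and 0.465% of all γδ T cells. Of 3252 genes, 12.2% were higher in this group in both libraries and 7.26% lower, from 136387 and 106603 UMIs. Il1r1, the interleukin 1 receptor, stood at 418 CPM in the group against 2.12 CPM outside it in CD4-Cre, and at 235 against 6.04 CPM in F/F. Blk, a kinase known in γδ T cells that make interleukin 17, stood at 389 against 4.67 CPM in CD4-Cre and 253 against 7.44 CPM in F/F. Hs6st2, a heparan sulfate sulfotransferase, stood at 345 against 2.54 CPM in CD4-Cre and 347 against 5.58 CPM in F/F. Gzmb stood at 147 against 1369 CPM and at 93.8 against 1335 CPM, and Tyrobp at 7.33 against 234 CPM and at 0 against 230.5 CPM. The group was thus set apart by genes that its gate did not use.

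Some variable segments followed these groups, as far as a 3′ library sees them, and the most frequent did so less. Trdv4 was seen in 41 CD4-Cre and 25 F/F cells, of which 22 and 9 fell in the type 17 group. Cd163l1 (SCART1), a scavenger receptor of γδ T cells, was seen in 28 and 12 of the same Trdv4 cells and Cd8a in 1 and 2. Tcrg-V6 was seen in 12 CD4-Cre and 7 F/F cells, of which 9 and 3 fell in the type 17 group. Tcrg-V7, the segment of intraepithelial cells, was seen in 49 CD4-Cre and 47 F/F cells. Cd8a was seen in 46 and 43 of these, and Tcrg-C1 in 47 and 45. Trgv2 was the segment seen most often, in 265 and 216 cells, and Tcrg-V1 was seen in 91 and 82 cells, Tcrg-C4 being present in 74 and 75 of them. Tcrg-V4 was seen in 75 and 44 cells. Cd8a was seen in 48.7% and 41.7% of Trgv2 cells and 48.0% and 34.1% of Tcrg-V4 cells, beside 36.9% and 38.4% of all γδ T cells. Zbtb16 was seen in 27.9% and 20.4% of Trgv2 cells and 37.3% and 27.3% of Tcrg-V4 cells, beside 32.3% and 24.2% of all. Cells with only Tcrg-C1 carried more Blk and Cd163l1 than cells with only Tcrg-C4. Blk stood at 87.2 against 5.92 CPM in CD4-Cre and 96.4 against 0 CPM in F/F, and Cd163l1 at 258 against 29.6 CPM and 235 against 9.14 CPM. Antigen presentation genes went the other way, as H2-Aa at 33.2 against 1018 CPM in CD4-Cre and 34.7 against 277 CPM in F/F, and Cd74 at 204 against 3002 CPM and 154 against 643 CPM. The 12 macrophage and dendritic cell markers summed to 258 CPM with only Tcrg-C1 against 3375 CPM with only Tcrg-C4 in CD4-Cre, with 7 and 0 of them at 0, and to 235 against 777 CPM in F/F, with 7 and 2 at 0. Their part in this comparison was not tested. Cells with only Tcrg-C2 stood above those with only Tcrg-C4 in cycling genes, with Mki67 at 112 against 5.92 CPM in CD4-Cre and 151 against 3.05 CPM in F/F, from 48 and 26 cells.

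Cells in which Trac was seen leaned to the Cd8a side. Of 3132 genes, 2.01% were higher in Trac-positive cells in both libraries and 2.87% lower. Cd8a was seen in 64.5% of Trac-positive against 21.4% of Trac-negative CD4-Cre cells and in 49.4% against 31.0% of F/F cells. Il7r stood at 161 against 512 CPM in CD4-Cre and 119 against 366 CPM in F/F, and Zbtb16 at 79.0 against 229 CPM and 37.1 against 170 CPM. Cycling genes also stood higher with Trac, as Top2a at 52.0 against 21.3 CPM and 160 against 44.1 CPM. Macrophage and dendritic cell genes were higher with Trac too. Lyz2 stood at 503 against 63.9 CPM in CD4-Cre and 60.2 against 20.4 CPM in F/F, H2-Aa at 451 against 159 CPM and 309 against 137 CPM, and Irf8 at 76.1 against 19.2 CPM and 73.2 against 30.5 CPM. The list of 12 markers summed to 1673 against 574 CPM in CD4-Cre and 1097 against 478 CPM in F/F. Median depth was 4248 against 3718.5 UMIs in CD4-Cre and 4689.5 against 4093 UMIs in F/F, and the part of depth and of these markers in the differences was not tested.

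Between the genotypes, the share of γδ T cells depended on what it was counted against. Among all kept cells it was 4.49% (4.14 to 4.87) in the CD4-Cre library and 3.41% (3.10 to 3.75) in the F/F library, a ratio of 1.32 (1.16 to 1.5). Plasma cells made up 63.9% and 73.6% of kept cells. Among cells under the immunoglobulin limit the γδ share was 12.5% and 12.9%, a ratio of 0.965 (0.849 to 1.10). Among cells with a CD3 UMI under that limit it was 17.5% and 21.4%, a ratio of 0.815 (0.717 to 0.926), beside CD4 T cells at 38.9% and 25.9%. Among kept cells with at most 8000 UMIs the ratio was 1.04 (0.913 to 1.19). The CD4 T cell gate needs a Cd4 UMI, and Cd4 stood at 1090 CPM in CD4-Cre and 359 CPM in F/F CD4 T cells. The part of Cd4 detection in the CD4 T cell shares was not tested.

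Gramd1a (chr7:31130127-31155896, minus strand), the floxed gene, stood at 96.2 CPM in CD4-Cre and 92.1 CPM in F/F γδ T cells, a ratio of 1.04 (0.864 to 1.26), and 32.3% and 36.3% of the cells had a UMI of it. In CD4 T cells it stood at 44.3 and 51.6 CPM and in CD8αβ T cells at 54.7 and 86.1 CPM. The sources used here do not name the floxed segment. A 3′ tag outside it says nothing of a deletion, so this does not check the labels. Gramd1b, which encodes the related carrier Aster-B, stood at 148 and 128 CPM, a ratio of 1.16 (0.989 to 1.35), and Gramd1c at 8.02 and 7.53 CPM, a ratio of 1.07 (0.530 to 2.17).

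As a background for all genes in γδ T cells, of 7642 genes with at least 50 UMIs, 4.85% were at least 1.5-fold higher in the CD4-Cre library and 4.14% at least 1.5-fold lower, around a median log2 ratio of 0.06. Of 9902 genes with at least 20 UMIs, the floor used for gene lists, 7.74% were higher and 6.9% lower. On simulated pools of 7606 genes with the same depth, 3.19% of unchanged genes passed 1.5-fold by counting error alone, counted over both directions together. The shares above are for 1 direction each. Of genes changed by 2-fold, 96.8% passed 1.5-fold in their direction. The pools were Poisson draws without spread between cells, so they leave out the error of genes carried by few cells.

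Several NK-type receptors stood higher in CD4-Cre γδ T cells. Klrk1, which encodes the activating receptor NKG2D (chr6:129610323-129623864), stood at 186 CPM in CD4-Cre and 67.7 CPM in F/F γδ T cells, a ratio of 2.74 (2.28 to 3.31). The share of cells with a Klrk1 UMI was 23.8% (20.3 to 27.5) and 15.3% (12.1 to 19.1), and 13.5% and 7.44% once every cell was thinned to 1500 UMIs. Its ratio was 2.10 (1.14 to 4.03) in Cd8a-positive and 2.86 (2.35 to 3.49) in Cd8a-negative cells. In the 28 CD4-Cre and 25 F/F cells with no UMI of Trac, Trbc1 or Trbc2 its log2 ratio was 0.42, against 1.45 over all cells. Klrc1, the inhibitory NKG2A chain, stood at 57.7 and 16.8 CPM, a ratio of 3.43 (2.39 to 5.04), and Klrc2, the activating NKG2C chain, at 51.7 and 23.9 CPM, a ratio of 2.16 (1.56 to 3.03). Their ratios differed between subsets. In Cd8a-positive cells Klrc1 had 50 UMIs in CD4-Cre and 1 UMI in F/F and Klrc2 33 and 2 UMIs, while in Zbtb16-positive cells their ratios were 1.15 (0.621 to 2.18) and 1.21 (0.651 to 2.34). In Cd8a-negative cells the ratios were 2.34 (1.58 to 3.52) and 1.70 (1.2 to 2.43). Klrc1 was among the genes kept apart by the free RNA rule given below. The part of free RNA in its ratio was not tested. Klra7, a receptor of the Ly49 family, stood at 59.7 and 23.5 CPM, with 35.6% and 62.3% of its UMIs in 5 cells. Genes of the Klrc and Klra families are similar in sequence, so their counts may be shared uncertainly. Of the 19 measured NK receptors, 5 were at least 1.5-fold higher and none lower, beside 7.74% and 6.9% of all genes. The median log2 ratio of the list was 0.11. Cd160, at a ratio of 1.03 (0.939 to 1.14), and Klrd1, at 1.03 (0.943 to 1.12), had intervals that hold 1.

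Cytotoxic genes as a list stood near the median of all genes, and granzyme A stood lower in CD4-Cre. Of 13 measured cytotoxicity genes 1 was at least 1.5-fold higher, Gzmc, and none lower, with a median log2 ratio of 0.05. Of all genes 7.74% were higher and 6.9% lower. The ratio of Gzma was 0.868 (0.853 to 0.884). It was 0.962 (0.942 to 0.982) in Cd8a-positive cells and 0.607 (0.586 to 0.629) in Cd8a-negative cells. Thinned to 1500 UMIs, 40.1% of CD4-Cre and 50% of F/F cells had a Gzma UMI. Itgae also stood lower, at 341 and 387 CPM with a ratio of 0.881 (0.801 to 0.969), and was seen in 29.7% and 37.2% of thinned cells. Ccl5, a chemokine of cytotoxic lymphocytes, stood at 12322 and 15234 CPM, a ratio of 0.809 (0.797 to 0.821). The ratio of Gzmb was 1.02 (0.970 to 1.07), and Prf1, the pore-forming perforin, at 54.5 and 38.5 CPM with a ratio of 1.42 (1.07 to 1.87). In each library 5 cells held 11.0% and 11.4% of the Gzma UMIs.

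**Figure D3:**
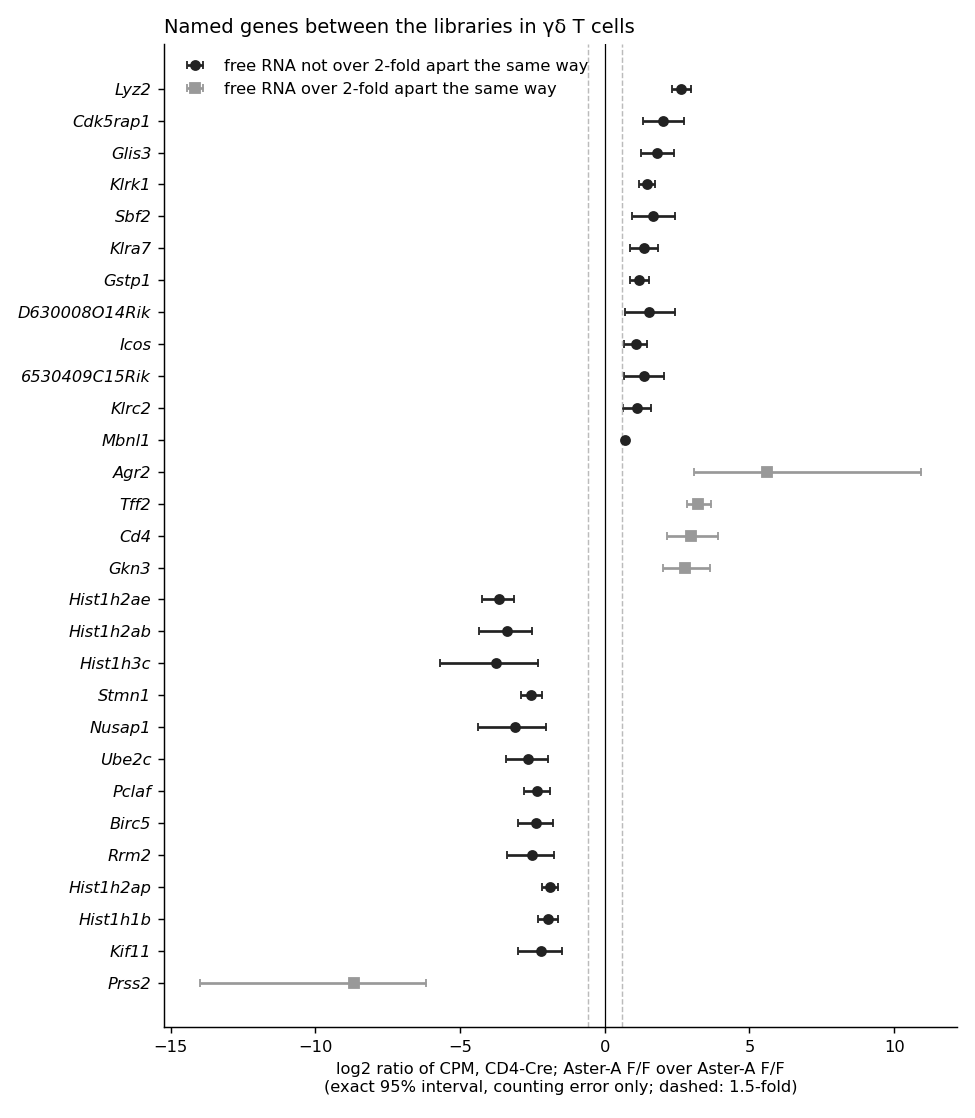
Log2 ratio of CPM in γδ T cells, CD4-Cre; Aster-A F/F over Aster-A F/F, with exact 95% intervals for counting error (horizontal bars), for the genes furthest from 0 in each direction. Grey squares are genes whose level in nearly empty barcodes also differed over 2-fold in the same direction. Genes at 0 UMIs in the CD4-Cre library (Ctrb1, Try4 and Cela2a) are not drawn. The upper genes include Klrk1 at 1.45 and Klrc2 at 1.11, and most of the lower ones outside the grey squares are cycling genes such as Stmn1 at -2.54.

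Zbtb16, Il12rb2, Il18rap, Il7r and Icos stood higher in CD4-Cre, while the lists they belong to held few genes past 1.5-fold. Zbtb16 stood at 166 CPM in CD4-Cre and 107 CPM in F/F, a ratio of 1.56 (1.33 to 1.84). Of 16 measured cytokine receptors 2 were at least 1.5-fold higher and none lower, with 14 above 0 and a median log2 ratio of 0.17. Of all genes 7.74% were higher and 6.9% lower, the background for each list of this paragraph. Il12rb2 stood at 180 and 116 CPM, a ratio of 1.55 (1.33 to 1.82), Il18rap, a chain of the interleukin 18 receptor, at 58.1 and 38.1 CPM, a ratio of 1.53 (1.16 to 2.02), and Il7r at 366 and 248 CPM, a ratio of 1.47 (1.33 to 1.64). Icos stood at 75.8 and 36.3 CPM, a ratio of 2.09 (1.60 to 2.74). Within Zbtb16-positive cells the ratio of Il7r was 1.12 (0.965 to 1.29) and that of Icos 1.83 (1.28 to 2.65), and within Zbtb16-negative cells they were 1.6 (1.37 to 1.88) and 1.85 (1.24 to 2.81). Of the 13 measured checkpoint and costimulation genes, Icos was the 1 past 1.5-fold higher and 2 were lower, Havcr2 from 22 and 34 UMIs and Cd200 from 16 and 23 UMIs, with a median of 0.08. Of 7 measured genes of a list of αβ T cell genes, 3 were past 1.5-fold higher and none lower. Of these, Cd4 had 113 UMIs in CD4-Cre and 13 UMIs in F/F, Cd28 296 and 153 UMIs, and Cd6 50 and 28 UMIs, while Trac had a ratio of 0.995 (0.854 to 1.16). In cells with no Trac UMI the ratios were 1.40 (1.24 to 1.58) for Il7r, 2.04 (1.49 to 2.83) for Icos and 2.25 (1.75 to 2.93) for Cd28. The part of αβ T cells in these values was not tested. Among 20 measured transcription factors, Zbtb16 was the 1 past 1.5-fold. Tbx21, the type 1 factor T-bet, stood at a ratio of 0.994 (0.823 to 1.2). Of 11 measured type 17 genes 1 was past 1.5-fold higher and none lower, with a median of 0.28. Cytokines showed 1 of 10 measured genes past 1.5-fold, Il10, from 16 and 7 UMIs, and Ifng stood at 43.7 and 43.4 CPM.

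Cycling genes stood lower in CD4-Cre γδ T cells. All 18 proliferation genes stood below 0, 15 of them at least 1.5-fold lower, against 6.9% of all genes, and their median log2 ratio was -1.13. Stmn1, a microtubule regulator of dividing cells, stood at 30.1 CPM in CD4-Cre and 174 CPM in F/F, a ratio of 0.172 (0.133 to 0.221). Mki67, the marker Ki-67, stood at 22.5 and 67.3 CPM and was seen in 3.55% (2.18 to 5.43) and 7.21% (4.95 to 10.1) of the cells. The histone genes Hist1h2ae and Hist1h1b, Birc5 (survivin), Pclaf, Rrm2, Nusap1, Ube2c and Kif11 were also among the 12 genes furthest below. Counts of single histone genes are uncertain, since the copies are near-identical. At least 5 of the 18 genes were seen in 18 CD4-Cre cells, 3.20% (1.91 to 5.01), and 35 F/F cells, 8.14% (5.73 to 11.1). In those cells stood 38.4% and 75.3% of the UMIs of the list, so that most of them lay in few cells in F/F but not in CD4-Cre. This cut was set after the values were seen.

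**Figure D4:**
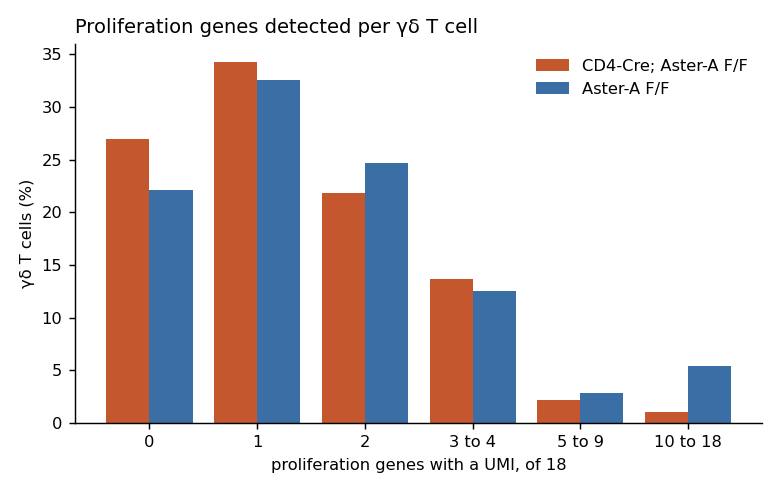
Share of γδ T cells (percent) by how many of 18 proliferation genes had a UMI, CD4-Cre; Aster-A F/F left and Aster-A F/F right in each pair. From 0 to 4 genes the libraries stand close, and 10 to 18 genes were seen in 6 CD4-Cre cells (1.07%) and 23 F/F cells (5.35%).

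These cycling cells were deep, with medians of 9048 UMIs in CD4-Cre and 10200 UMIs in F/F, and 12 and 25 of them had over 8000 UMIs. With every cell thinned to 1500 UMIs, at least 3 of the 18 genes were seen in 1.95% (0.979 to 3.47) of CD4-Cre and 7.21% (4.95 to 10.1) of F/F cells. Among the cycling cells Cd8a was seen in 14 of 18 CD4-Cre and 18 of 35 F/F cells, and Trac in 14 and 24. Mzb1, a plasma and B cell gene, was seen in 55.6% and 68.6% of them, beside 51.0% and 52.1% of all γδ T cells. Cd79a, a B cell gene, was seen in 16.7% and 28.6% of them, beside 7.64% and 10.0% of all γδ T cells. The part of doublets in these cells was not tested. Among γδ T cells with at most 8000 UMIs the median of the list was -0.32.

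Metabolic lists stood near the median of all genes, apart from oxidative phosphorylation. Of 13 sterol transport genes and 22 cholesterol synthesis genes measured, 0 and 1 were at least 1.5-fold higher and 0 and 2 lower, with medians of 0.06 and -0.06. Of 16 measured genes of fatty acid use, 0 were at least 1.5-fold higher and 2 lower, beside 6.9% of all genes lower, with a median of 0.04. Among them Fabp5, a fatty acid binding protein, stood at 14.8 CPM in CD4-Cre and 31.4 CPM in F/F, a ratio of 0.472 (0.308 to 0.712). It was the only gene of that list with an interval that leaves out 1. Of 20 oxidative phosphorylation genes none passed 1.5-fold, but 14 stood below 0, with a median of -0.14. Cox6c, a subunit of cytochrome oxidase, stood at 316 and 445 CPM, a ratio of 0.709 (0.645 to 0.779). The 15 glycolysis genes had a median of -0.06 and the 12 measured genes of the LXR and fatty acid synthesis list one of 0.11, with none past 1.5-fold in either list. The interferon list had a median of 0.01, with 1 of 20 genes past 1.5-fold, Ifi27l2a, at 42.9 and 81.5 CPM. Of 18 early response genes 2 were at least 1.5-fold higher and none lower, beside 7.74% and 6.9% of all genes. The list had 12 genes above 0, 6 below and a median of 0.07. Among them Fosb stood at a ratio of 1.56 (1.37 to 1.79), Fos at 1.42 (1.27 to 1.60) and Nr4a1, a target of receptor signalling, at 0.690 (0.535 to 0.888). The receptor and CD3 list, 9 genes measured, had a median of 0.10, with Trdc at 1215 and 991 CPM, a ratio of 1.23 (1.16 to 1.30). Trdc and other genes of this list, among them Cd3d, Cd3e and Cd3g, helped choose the cells. The values of this list are thus a description and no finding.

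**Figure D5:**
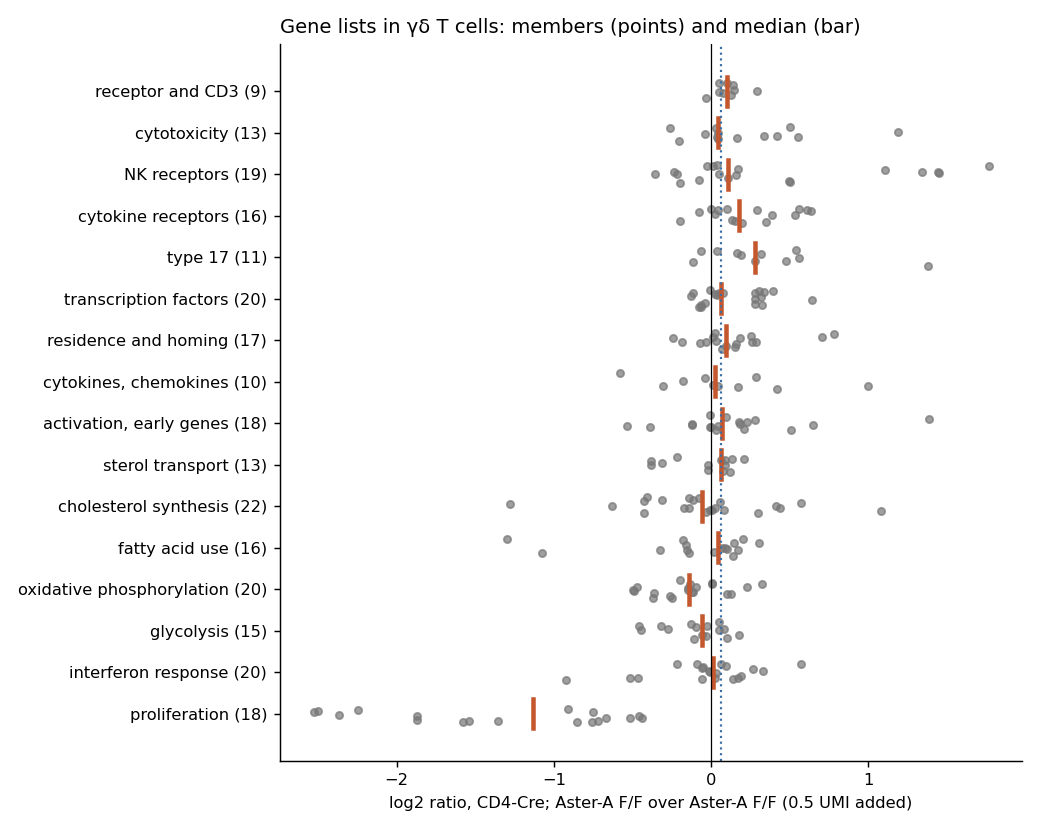
Log2 ratio, CD4-Cre; Aster-A F/F over Aster-A F/F, of each measured member (points, 0.5 UMI added) and the median (bar) of 16 gene lists in γδ T cells, with the number measured in brackets. The dotted line is the median of all genes, 0.06. The proliferation list stands apart at -1.13. The median of the oxidative phosphorylation list is -0.14.

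Some of the furthest genes also differed in free RNA or lay in few cells. Barcodes of 10 to 100 UMIs, taken as nearly empty, were used to measure free RNA. Tff2, a stomach mucus peptide, stood at 233 CPM in CD4-Cre and 24.8 CPM in F/F γδ T cells, and at 469 and 80.2 CPM in free RNA. The pancreatic enzyme genes Ctrb1, Try4 and Cela2a had 0 UMIs in CD4-Cre γδ T cells and 492, 387 and 307 UMIs in F/F γδ T cells, and stood at 39.1, 26.9 and 10.1 CPM against 227, 169 and 133 CPM in free RNA. Cd4 stood at 45.3 and 5.76 CPM, seen in 8.70% and 2.09% of γδ T cells, and at 18.2 and 8.83 CPM in free RNA. In CD4 T cells it also stood higher in CD4-Cre, at 1090 and 359 CPM. Lyz2, a macrophage gene, stood furthest above among the other genes, at 247 and 39.4 CPM, but 94.6% and 74.2% of its UMIs lay in 5 cells, and its log2 ratio of 2.65 was 0.38 once those cells were left out. Mbnl1, a splicing regulator, was spread over 98.4% and 95.8% of the cells, at 2455 and 1518 CPM, a ratio of 1.62 (1.55 to 1.69). Gstp1, a glutathione transferase, stood at 109 and 47.8 CPM and was seen in 36.9% and 21.6% of the cells.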

How the data were processed

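Droplet 3′ single-cell RNA libraries (10x Genomics) from sorted lamina propria cells were analysed from the deposited UMI counts, which were unfiltered and used as deposited. The submitters' processing notes name Cell Ranger 7.2.0, Seurat 5.0.1 and the builds mm10 and GRCm38. A barcode counted as a cell from 1000 UMIs and 500 genes upward, with no more than 10% of UMIs mitochondrial. No clustering was done and doublets were not removed. The members and gene lists were chosen with earlier results of these data known. UMIs were summed over cells and divided by their total (CPM), a log2 ratio was taken of CD4-Cre over F/F, and exact binomial (Clopper-Pearson) 95% intervals were computed with Python 3.11.15, NumPy 2.4.6 and SciPy 1.17.1. UMIs of 1 cell are not independent, so intervals of genes carried by few cells are too narrow. Lists used members with at least 20 UMIs over both libraries and 0.5 UMI added. Of the genes in 30 lists or named, 552 of 552 matched GENCODE M21 by identifier, and a butyrophilin-like list and a mast cell list had 0 measured genes.

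Named between libraries were the genes of the rule, the Aster genes, and up to 12 genes in each direction with 50 UMIs or more, 20 CPM or more in a library and a log2 interval that stays 0.2 or more away from 0, in order of that distance. Genes whose free RNA differed over 2-fold the same way, or exceeded the cells in both libraries, were kept apart. Against populations and between subsets, genes were named by the smaller of the log2 ratios of both libraries. The other populations were gated on transcripts, all under the immunoglobulin limit except plasma cells, which were over it. CD8αβ T cells had CD3 and Cd8b1 without Trdc or Foxp3. CD8α-only T cells had CD3, Cd8a and an αβ constant gene without Trdc, Cd8b1, Cd4 or Foxp3. CD4 T cells had CD3, Cd4 and an αβ constant gene without Trdc, Cd8a or Cd8b1. NK or ILC1 cells had Ncr1 or Klrb1c, and Gzma, Nkg7 or Xcl1, without CD3 or Cd79a, and without a further gene that, like some others, is not reported here. The calculation was tested on simulated Poisson pools, where 95.6% of intervals held the true ratio. The intervals rest on the same counting model, so this checks the calculation and not how well the model describes the cells.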

Additional observations from a re-analysis of the deposited data

How the results depend on the processing

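No paired analysis was possible because each genotype was 1 pool, and for the same reason no replicate was left out. The settings without a Trac UMI and with fewer than 5 proliferation genes, and the gate of the type 17 group, were chosen after seeing the data.

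The ratio of the γδ share among kept cells, 1.32, was 1.04 among cells with no more than 8000 UMIs. It was 1.13 when only γδ T cells with no UMI of Trac, Trbc1 or Trbc2 were counted, still against all kept cells. The ratio among CD3 cells, 0.815, was 0.697 when only those γδ T cells were counted, still against all CD3 cells under the immunoglobulin limit. The values 1.13 and 0.697 rest on 28 CD4-Cre and 25 F/F cells and are given without intervals. Against 371 genes higher and 316 lower in CD4-Cre, the counts were 43 and 36 with no αβ UMI, 164 and 135 with at least 100 UMIs, and 766 and 683 with at least 20 UMIs. Genes lower numbered 136 at no more than 8000 UMIs, 203 without Trac, 157 with fewer than 5 proliferation genes and 176 without the 5 highest cells per gene. Each count covers the genes that reached the floor in its setting, 7642 for the reported counts and 9902 with at least 20 UMIs. The other settings used fewer cells, fewer UMIs or a higher floor, so fewer genes could be counted. A smaller count is therefore not by itself a smaller share. With no αβ UMI, list medians were -0.33 for residence genes, 0.67 for transcription factors and 0.50 for cytokine receptors. The proliferation median, -1.13, was -0.32 at no more than 8000 UMIs, -0.50 without Trac and 0.10 with fewer than 5 proliferation genes, where Hist1h2ap stood at 0.43. That last setting leaves out cells by the genes of the list itself, so its value says nothing of where the difference lay. The variable segment median was -0.053 without Trac.

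Shares of cells with a UMI are given as CD4-Cre, then F/F. With no αβ UMI they were 17.9% and 32% for Cd8a, 39.3% and 44% for Gzmb, 50% and 60% for Cd160 and 0% and 0% for Il17a. There Gzma stood at 32.1% and Itgae at 35.7% in CD4-Cre, and Ifng at 8% in F/F. Without Trac they were 21.4% and 31.0% for Cd8a, 32.5% and 45.7% for Gzma, 35.8% and 47.3% for Gzmb and 34.7% and 48.4% for Itgae, with Cd160 at 59.7% in F/F. Thinned to 1500 UMIs they were 26.6% and 25.6% for Cd8a, 39.1% and 43.5% for Gzmb, 37.8% and 36.7% for Cd160, 29.7% and 37.2% for Itgae, 18.5% and 17.9% for Trac, 5.51% and 6.74% for Ifng and 0% and 0% for Il17a. Thinned Gzma stood at 40.1% in CD4-Cre. The causes were not tested. Of single-gene log2 ratios under the alternatives, 347 stayed within the interval of the reported value, 73 left it and 1 called ratio changed sign. With 1 pool per genotype, differences between mice and between genotypes cannot be told apart.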
